A study of Mus musculus with 9 samples.

Results

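Transcripts that are best known from T and B lymphocytes were followed in samples labelled as fibroblastic reticular cells (FRCs), a stroma whose network forms the scaffold of lymph nodes. The members were all probes that the platform annotation gives to 9 genes: Cd3e, Cd8b1, Trat1, Cd79b, Cr2, Fcer2a, Ebf1, Ccr7 and Cd52. They came to 20 of the 45281 probes on the array, and 17 of the 20 passed the filter on dim probes, which asked for a detection p-value under 0.01 on at least 3 of the 9 arrays. The 9 symbols were selected on measured log2 levels and group differences of these same arrays, among them the low day 4 signal of Cd3e, so all member differences below are a description and nothing is supported with them.

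The samples came from female C57BL/6 mice, and each array held RNA of FRCs pooled from 2 brachial lymph nodes of 1 animal. There were 3 groups of 3 arrays. In the first the nodes drained PBS, and in the others they drained a tumour and were labelled day 4 or day 11. The labels give the PBS group no day, and neither the tumour nor the way the cells were isolated is given in the sources used here. In such pooled samples, fewer lymphocytes and less RNA per lymphocyte cannot be told apart.

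A lymph node is divided into a T cell zone, where FRCs produce Ccl19 and Ccl21, and B cell follicles, where stromal cells produce Cxcl13. T cells, B cells and mature dendritic cells carry Ccr7, the receptor that reads Ccl19 and Ccl21, so these cells lie in close contact with the reticular network. Several of the 9 genes are not exclusive to lymphocytes: Cr2, a complement receptor, and Fcer2a, the low-affinity IgE receptor CD23, are made by follicular dendritic cells as well as by B cells, Ebf1 is a transcription factor of B cells and also of mesenchymal cells, and Cd52, a small surface glycoprotein, is also found on myeloid cells.

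Promoter sequences from RefSeq were matched to 5 of the 9 genes, and those of Cd3e, Cr2 and Fcer2a are shown because Cd3e had the largest difference between groups and because Cr2 and Fcer2a are the pair of members shared with follicular dendritic cells. Each is a window of 300 bases around a listed start, most of it upstream, in build GRCm38.p6, written 5′ to 3′ on the gene's strand. Fcer2a is listed with further starts, and the one farthest upstream is shown. Capitals mark the letters ACTTCC, the reverse complement of GGAAGT, a core recognised by ETS factors.
Cd3e (chr9:45009562-45009861, minus strand): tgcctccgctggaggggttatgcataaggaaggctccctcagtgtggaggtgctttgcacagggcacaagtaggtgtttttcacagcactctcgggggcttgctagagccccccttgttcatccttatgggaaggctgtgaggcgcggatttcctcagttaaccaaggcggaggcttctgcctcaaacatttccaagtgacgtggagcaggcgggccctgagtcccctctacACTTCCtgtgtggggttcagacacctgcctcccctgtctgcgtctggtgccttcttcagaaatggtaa
Cr2 (chr1:195176670-195176969, minus strand): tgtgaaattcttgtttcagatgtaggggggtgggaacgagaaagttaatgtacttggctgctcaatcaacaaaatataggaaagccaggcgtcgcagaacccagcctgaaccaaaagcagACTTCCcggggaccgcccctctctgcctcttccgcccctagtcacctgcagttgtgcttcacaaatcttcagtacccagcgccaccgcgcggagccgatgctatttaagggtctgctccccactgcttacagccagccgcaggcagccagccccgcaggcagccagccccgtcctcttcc
Fcer2a (chr8:3694125-3694424, minus strand): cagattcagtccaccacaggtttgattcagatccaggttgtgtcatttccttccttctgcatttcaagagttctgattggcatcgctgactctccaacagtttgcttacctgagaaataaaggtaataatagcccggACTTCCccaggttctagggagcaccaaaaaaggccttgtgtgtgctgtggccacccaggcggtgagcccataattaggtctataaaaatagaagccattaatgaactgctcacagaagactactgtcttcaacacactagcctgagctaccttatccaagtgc
GGAAGT, searched on both strands, occurs in 23.8% of the 32851 promoters in the same table and in 4 of the 8 windows listed for the matched members. The windows of Trat1, the other starts of Fcer2a and a further start of Ebf1 lack it, and the windows shown are thus not typical of the members. The EBF motif CCCNNGGG, a palindrome, occurs in 13.7% of them and in no listed promoter of the 5 matched members. These matches describe the letters of the windows and were not tested against the array values.

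The identity of the samples was checked first against markers. All 18 listed FRC genes passed the filter on dim probes. Among them, Pdpn, Pdgfra, Ccl19, Ccl21a, Cxcl13 and Col1a1 were detected on all 9 arrays. Pdgfrb and Ltbr were each detected on only 4 of the 9 arrays, and Pdgfrb on 0 at day 11. Of the T cell receptor and signalling list, 22 of 28 genes had a named probe and 12 passed. Cd3d and Cd3g, the partners of Cd3e in the receptor complex, were detected on 7 and 3 of the 9 arrays. Zap70, the kinase that the receptor recruits, and the surface receptors Cd5 and Cd28 were detected on 0 arrays, and the coreceptor gene Cd4 on 1. Of the B cell receptor and signalling list, 18 of 22 genes had a named probe and 14 passed. Pax5, the factor that keeps B cell identity, was detected on 0 arrays and Ms4a1, which encodes CD20, on 1. Detected on all 9 arrays by at least 1 probe were Icos and Lcp2 of the T cell list, beside the members Cd8b1 and Trat1. In the B cell list these were Cd72 and Cd81, beside the members Cd79b, Cr2 and Fcer2a. For Icos 1 of 2 probes passed the filter, and for Lcp2 1 of 3. The listed lymphocyte genes were thus detected in part, some on every array and some on none.

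The number of detected probes differed between arrays. Between 9606 and 17627 probes were detected per array. Day 11 replicate 3, with 9606, and PBS replicate 1, with 11529, had 10 and 11 of the 20 member probes detected, while the other 7 arrays had 13 to 18. PBS replicate 1 was the lowest of its group for 14 of the 17 tested member probes, against 40.7% of all 16577 tested probes. Day 11 replicate 3 was the lowest of its group for 13 of the 17, against 40.1% of all tested probes. The part of array-wide detection in these low values was not tested. Day 11 replicate 1, with 11218 detected probes, had 16 member probes detected.

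Levels below are log2 intensities after background correction and quantile normalisation, and the probes of a gene are numbered from the brightest. The T cell members came first. Cd3e encodes the epsilon chain of CD3, the signalling part of the T cell receptor. Its probe 1 stood at 7.32, 7.46 and 7.42 in PBS replicates 1 to 3. It stood at 6.27, 5.81 and 5.26 at day 4, where it was detected on 1 of 3 arrays, and at 7.06, 7.44 and 6.70 at day 11. The day 4 arrays lay below every PBS and every day 11 array, and PBS and day 11 overlapped. Probe 2 stood at 6.71, 6.89 and 6.82 in PBS, at 5.73, 5.92 and 6.13 at day 4, and at 6.75, 7.12 and 5.10 at day 11. Here too the day 4 arrays lay below the PBS arrays, but day 11 replicate 3, where the probe was not detected, was the lowest of all.

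The log2 change of Cd3e from PBS to day 4 was -1.62 ± 0.33 (SE, n = 3 per group) for probe 1 and -0.88 ± 0.46 for probe 2. Since 2 of the 3 day 4 values of probe 1 were not above background, the size of its change is uncertain. It was -0.91 without background correction and -0.94 on the authors' processed values, and the mean stayed lower at day 4 under each of the 17 alternatives that could be computed for these probes. At day 11, probe 1 differed from PBS by -0.33 ± 0.33 and from day 4 by 1.29 ± 0.33, the latter 0.70 without background correction and 0.72 on the authors' values. Cd3d had log2 changes of -0.60 ± 0.60 at day 4 and 0.21 ± 0.60 at day 11, and Cd3g had -0.28 ± 0.52 and -0.06 ± 0.52, and the groups of both overlapped.

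**Figure D1:**
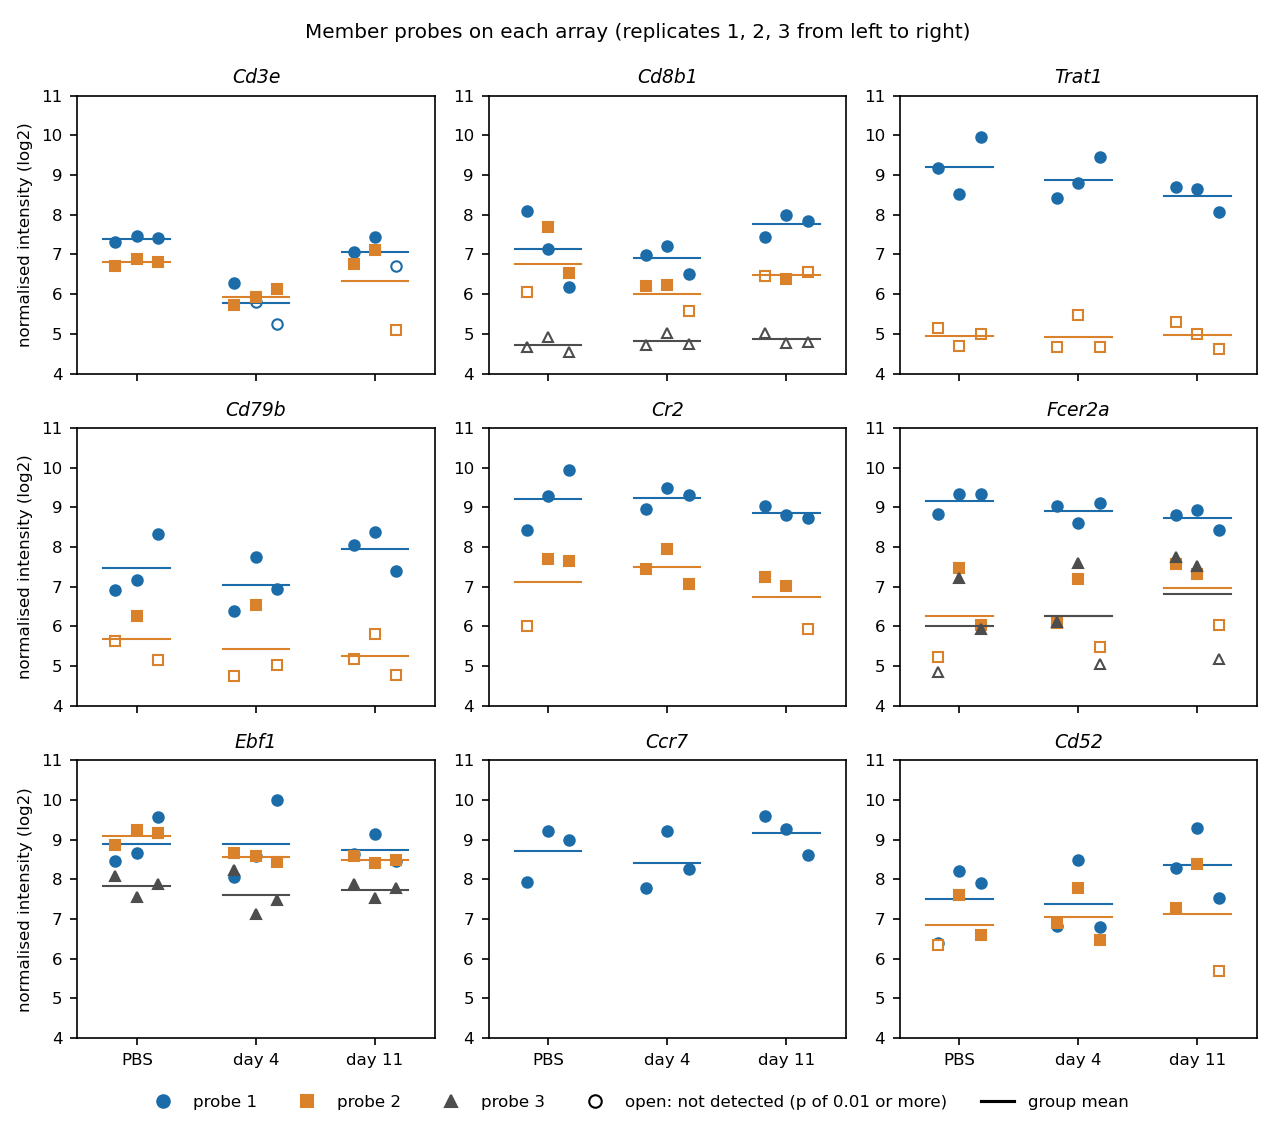
Normalised log2 intensity of all 20 member probes on the 9 arrays, by group on the horizontal axis, with replicates 1 to 3 from left to right, open symbols where a probe was not detected and lines at group means. Both Cd3e probes lie lower at day 4 than in PBS, while most other members spread as widely within groups as between them.

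Cd8b1 encodes the beta chain of CD8, the coreceptor of cytotoxic T cells. Its probe 1 was detected on all 9 arrays and stood at 8.09, 7.13 and 6.17 in PBS, 6.99, 7.22 and 6.51 at day 4, and 7.44, 8.0 and 7.84 at day 11. The PBS arrays spanned the whole range of the other groups. Probe 2 was highest in PBS replicate 2, at 7.70, and otherwise lay between 5.57 and 6.57. It was detected on 5 of the 9 arrays: 2 in PBS, 2 at day 4 and 1 at day 11. Its day 11 level was thus mostly not above background. Both probes were higher on each day 11 array than on each day 4 array, by 0.85 ± 0.45 and 0.47 ± 0.41, but they did not follow each other over the 9 arrays (Pearson r = 0.06, Spearman rho = -0.02, given as a description). Probe 3 was detected on 0 arrays. Cd8a, the partner chain, had log2 changes of -0.03 ± 0.43 at day 4 and -0.29 ± 0.43 at day 11.

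Trat1 encodes an adaptor that associates with the T cell receptor. Its probe 1 was detected on all arrays at 9.17, 8.53 and 9.95 in PBS, 8.42, 8.79 and 9.45 at day 4, and 8.71, 8.64 and 8.06 at day 11. All 3 groups overlapped, and the change from PBS to day 11 was -0.75 ± 0.42. Probe 2, annotated to the same transcript record, was detected on 0 arrays and stayed between 4.62 and 5.47. The signal named Trat1 therefore rests on 1 of its 2 probes.

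Among the B cell members, Cd79b encodes a signalling chain of the B cell receptor. Its probe 1 stood at 6.92, 7.17 and 8.34 in PBS, 6.39, 7.76 and 6.95 at day 4, and 8.06, 8.37 and 7.39 at day 11. The 3 groups overlapped, with changes of -0.44 ± 0.48 at day 4, 0.46 ± 0.48 at day 11 and 0.90 ± 0.48 between the tumour groups. Probe 2 was detected on 2 arrays, PBS replicate 2 and day 4 replicate 2. Those arrays also held the highest values of their groups for Cd52 and for probes 2 and 3 of Fcer2a.

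Cr2, the receptor for complement fragments, was detected on all 9 arrays by probe 1. It stood at 8.42, 9.28 and 9.95 in PBS, 8.96, 9.48 and 9.30 at day 4, and 9.04, 8.80 and 8.74 at day 11. Its log2 change was 0.03 ± 0.38 at day 4 and -0.36 ± 0.38 at day 11, with overlapping groups. Probe 2 moved with it over the arrays (Pearson r = 0.78, Spearman rho = 0.80, n = 9, a description) and was low in PBS replicate 1, at 6.00, and day 11 replicate 3, at 5.94, the arrays on which it was not detected. Its changes were 0.38 ± 0.52 and -0.37 ± 0.52.

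The 3 probes of Fcer2a, all annotated to 1 transcript record, fell into separate patterns. Probe 1 was steady, at 8.84, 9.34 and 9.33 in PBS, 9.04, 8.60 and 9.12 at day 4, and 8.80, 8.93 and 8.43 at day 11, with a within-group SD of 0.27. Probe 2 stood at 5.24, 7.47 and 6.04 in PBS, 6.08, 7.20 and 5.48 at day 4, and 7.58, 7.32 and 6.04 at day 11, with a within-group SD of 0.95. Probe 3 had a within-group SD of 1.30, which was larger than in 99.5% of all tested probes. Probes 2 and 3 rose and fell together (Pearson r = 0.97, Spearman rho = 0.92, n = 9), also after group means were removed (r = 0.97), whereas probe 1 followed neither (r = -0.03 and 0.02). These are descriptions over arrays that share their RNA between probes. The changes at day 11 against PBS were -0.45 ± 0.29 for probe 1, 0.73 ± 0.64 for probe 2 and 0.81 ± 0.85 for probe 3, so the probes of this gene differ in direction, the groups of each overlapped and none passed the test.

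Ebf1 was detected on all 9 arrays by all 3 of its probes. Probe 1 ranged from 8.06 to 10.00, both at day 4. Probe 2 stood at 8.87, 9.25 and 9.17 in PBS, 8.66, 8.59 and 8.44 at day 4, and 8.58, 8.40 and 8.48 at day 11, so each PBS array lay above each tumour array. Its changes were -0.53 ± 0.25 at day 4 and -0.61 ± 0.25 at day 11, while probe 1 gave 0.00 ± 0.50 and -0.14 ± 0.50, and probe 3 gave -0.22 ± 0.33 and -0.10 ± 0.33. Probes 1 and 2 are annotated to different cDNA records and probe 3 to the RefSeq transcript. The pattern of probe 2 was therefore not shared by the other Ebf1 probes.

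Of the members shared by several leukocytes, Ccr7 was measured by 1 probe. It stood at 7.92, 9.21 and 8.98 in PBS, 7.78, 9.22 and 8.26 at day 4, and 9.60, 9.26 and 8.62 at day 11. The groups overlapped, and the changes were -0.28 ± 0.47 at day 4 and 0.46 ± 0.47 at day 11. Cd52 probe 1 stood at 6.40, 8.21 and 7.91 in PBS, 6.82, 8.48 and 6.81 at day 4, and 8.28, 9.30 and 7.54 at day 11. Within PBS alone it ranged from 6.40 to 8.21, wider than its change of 0.87 ± 0.63 at day 11. Probe 2 had 0.27 ± 0.65.

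**Figure D2:**
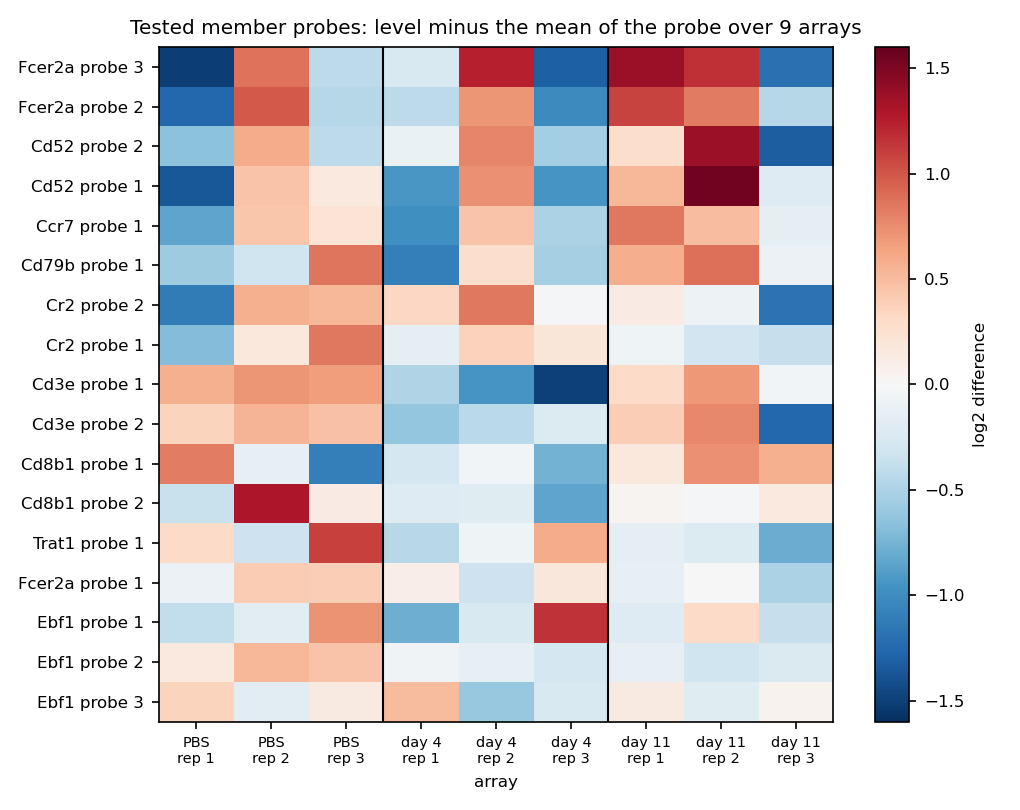
Level of each of the 17 tested member probes on each array minus that probe's mean over the 9 arrays, on the log2 scale from -1.6 in blue to 1.6 in red. Fcer2a probes 2 and 3, Cd52 and Ccr7 are high on PBS replicate 2 and day 4 replicate 2 and low on PBS replicate 1, and the row of Cd3e probe 1 is low on the 3 day 4 arrays.

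The arrays of a group differed from each other in a shared way for part of the members. Ccr7 followed Cd52 probe 1 over the 9 arrays (Pearson r = 0.89, Spearman rho = 0.90), and after group means were removed r was 0.87. Cd79b followed Ccr7 (r = 0.82, rho = 0.83, and r = 0.75 within groups) and Cd52 probe 1 (r = 0.80, rho = 0.80). Fcer2a probe 2 followed Ccr7 (r = 0.86, rho = 0.77) and stayed with it when PBS replicate 1 was left out (r = 0.81). Relative to their own means over the 9 arrays, Ccr7, both Cd52 probes and Fcer2a probes 2 and 3 were high on PBS replicate 2, day 4 replicate 2 and day 11 replicates 1 and 2, and low on PBS replicate 1 and day 4 replicates 1 and 3. Cd79b differed from them in PBS, where replicate 3 was its highest array. These correlations describe arrays that share RNA and amplification between probes, and the pairs were picked after the values were seen.

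**Figure D3:**
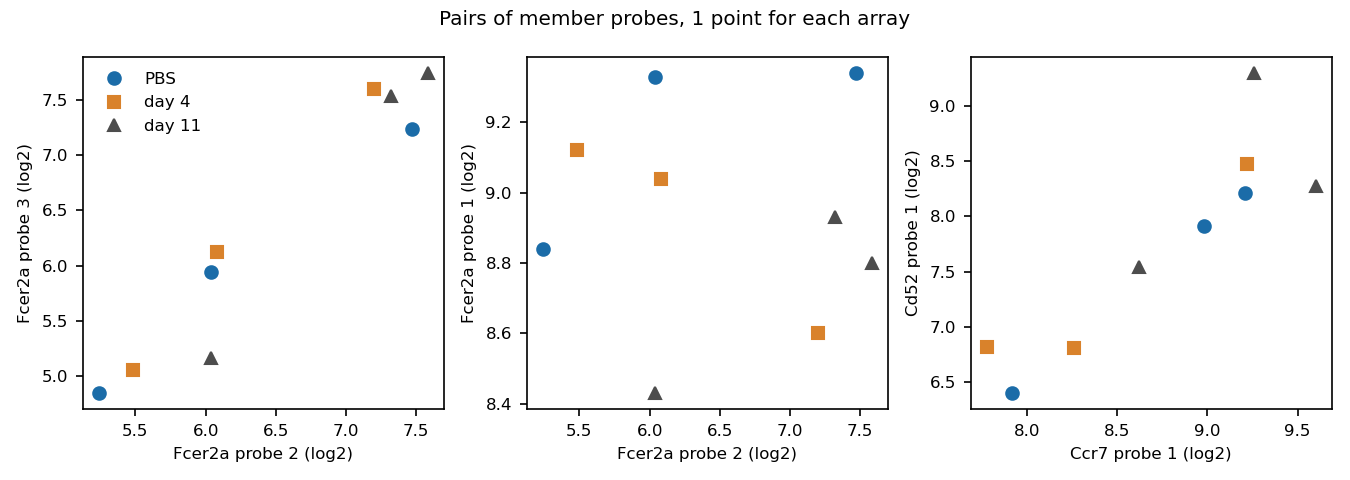
Log2 level of a pair of member probes in each panel, with 1 point for each of the 9 arrays and symbols for the groups. Fcer2a probes 2 and 3 lie near a line (r = 0.97), Fcer2a probes 2 and 1 do not (r = -0.03), and Ccr7 and Cd52 probe 1 do (r = 0.89).

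Among 8604 genes with a tested probe and a gene symbol that is no clone or locus identifier, the 2 most like each member probe over the 9 arrays were listed by Pearson r. For Cd3e they were the transcription factor gene Klf6 (r = 0.925) and Arhgap25 (r = 0.912) with probe 1, and Dennd4a (r = 0.949) and Rgs10 (r = 0.905) with probe 2. For Cd8b1 they were the respiratory chain gene Ndufa11 (r = 0.933) and Anapc4 (r = 0.930) with probe 1, and Sfxn4 (r = 0.919) and Ccdc138 (r = 0.893) with probe 2. For Trat1 they were the RNA-binding protein gene Ssb (r = 0.939) and Pibf1 (r = 0.915).

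Of the B cell members, Cd79b lay nearest to the mitochondrial dehydrogenase gene Acadm (r = 0.943) and Fam107b (r = 0.925). Cr2 probe 1 lay nearest to Rfx2 (r = 0.932) and Edem1 (r = 0.927), and probe 2 to Nos1ap (r = 0.943) and the kinase gene Syk (r = 0.935). Fcer2a probe 1 lay nearest to Ifi213 (r = 0.953) and Senp7 (r = 0.939). Its probe 2 lay nearest to Flt3 (r = 0.950), a receptor of dendritic cell and lymphoid progenitors, and Dock10 (r = 0.947), and probe 3 to Flt3 (r = 0.955) and Rpgr (r = 0.948). The 3 Ebf1 probes shared no neighbour: probe 1 had Ndnf (r = 0.947) and Tigd4 (r = 0.922), probe 2 Spock2 (r = 0.944) and the ribosomal protein gene Rpl6 (r = 0.922), and probe 3 Sspn (r = 0.928) and the DNA sensor gene Cgas (r = 0.923).

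Ccr7 lay nearest to Ikzf1 (r = 0.938), a transcription factor of lymphocytes, and Rbm39 (r = 0.936). Cd52 probe 1 lay nearest to H2-Ab1 (r = 0.938), an MHC class II chain, and Tnfrsf13c (r = 0.934), the BAFF receptor of B cells, and probe 2 to Rab27a (r = 0.930) and Gpr65 (r = 0.908). With 9 arrays and 8604 candidates, a correlation above 0.9 was reached by every tested member probe, so they are given as descriptions.

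The groups were compared in limma over all 9 arrays, and p-values were adjusted by Benjamini-Hochberg across 16577 probes, with a threshold of 0.05. At day 4 against PBS, 0 of the 17 member probes passed, and 0% of all tested probes did (1 member probe and 7.89% of all probes had an unadjusted p under 0.05). The lowest adjusted p among members was 0.285, for Cd3e probe 1. Of the 17, 5 were higher and 12 lower, with a median log2 change of -0.22 against 0.033 over all tested probes. In 3 of them, both Cd3e probes and Ebf1 probe 2, the groups did not overlap and day 4 was lower, a pattern found in 4.37% of all tested probes. Day 4 was the higher group without overlap in 0 member probes and in 6.04% of all tested probes. Nothing is read from that count, since Cd3e was named with this difference known.

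At day 11 against PBS, 0 of the 17 member probes passed, against 0.00603% of all tested probes (1 member probe and 10.4% of all probes had an unadjusted p under 0.05). The lowest adjusted p was 0.432, for Ebf1 probe 2. Of the 17, 7 were higher and 10 lower, with a median of -0.14 against 0.025 over all tested probes. Ebf1 probe 2 was the 1 member probe whose groups did not overlap, lower at day 11, as in 7.66% of all tested probes. Higher without overlap were 0 member probes and 10.1% of all tested probes. The PBS arrays serve as the baseline of both comparisons, so these values share that group.

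At day 11 against day 4, 0 of the 17 passed, against 0.00603% of all tested probes (1 member probe and 6.65% of all probes had an unadjusted p under 0.05). The lowest adjusted p was 0.555, for Cd3e probe 1. Here 11 were higher and 6 lower, with a median of 0.39 against -0.003 over all tested probes. Groups did not overlap in 3 probes, Cd3e probe 1 and Cd8b1 probes 1 and 2, all higher at day 11, as in 7.36% of all tested probes. Of these, Cd8b1 probe 2 was detected on 1 of the 3 day 11 arrays. Lower without overlap were 0 member probes and 7.5% of all tested probes. The tested member probes had a median within-group SD of 0.63, against 0.49 over the 9517 tested probes in the same range of mean level. The 95% interval of the day 11 change of Cd52 probe 1 ran from -0.54 to 2.28 on the log2 scale, and that of Fcer2a probe 3 from -1.09 to 2.70.

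**Figure D4:**
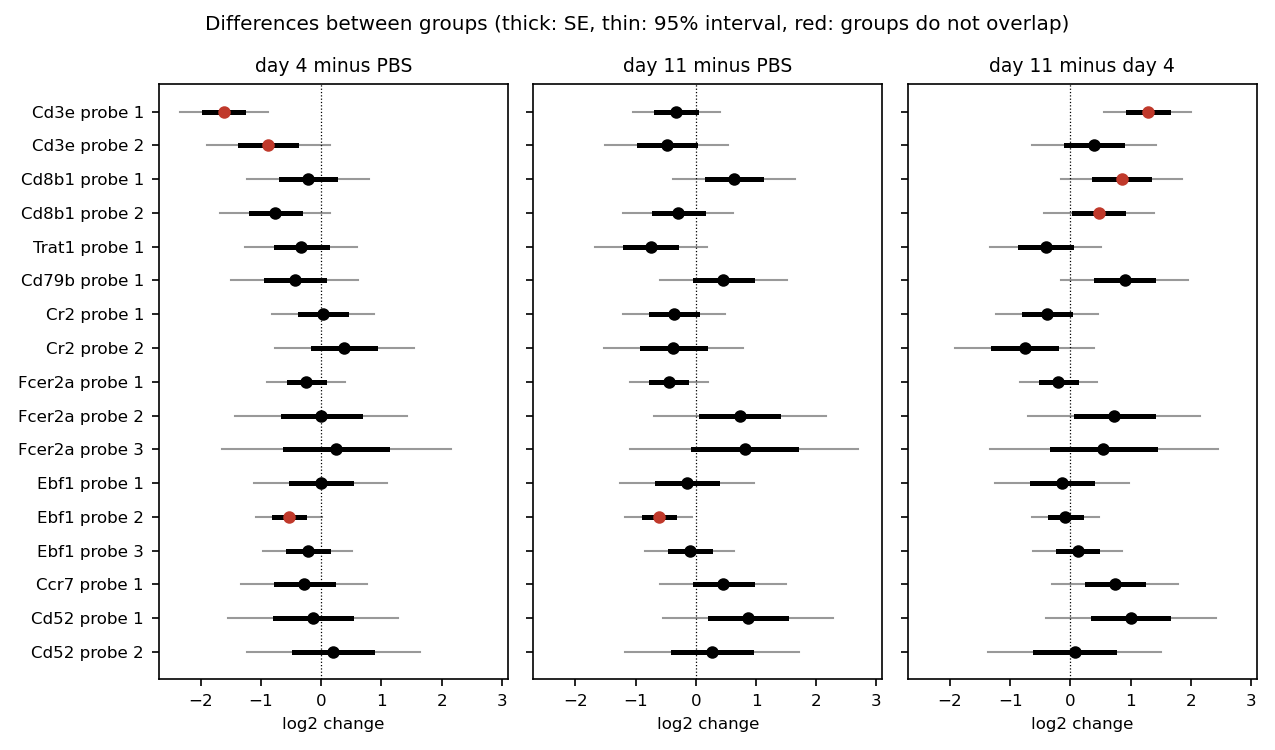
Log2 change of the 17 tested member probes in the 3 comparisons, with the SE as a thick bar, the 95% interval as a thin bar and red points where the groups did not overlap. Cd3e probe 1 lies at -1.62 at day 4 against PBS, and most intervals include 0.

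Genes of the same pathways were read from lists that include the members. Of the 12 tested T cell receptor and signalling genes, 0 passed in each comparison. At day 4, 2 were higher and 10 lower than PBS, with a median of -0.31 against 0.045 over the 8819 tested genes. Of all tested genes, 53.8% were higher at day 4. The 10 lower genes include all 3 T cell members, which were selected on these arrays, so nothing is read from that split. At day 11, 4 of the 12 were higher and 8 lower (median -0.12 against 0.053). From day 4 to day 11, 9 were higher and 3 lower (median 0.33 against 0.015). Cd6, a surface receptor of T cells, went the other way, with no PBS array above background. The day 11 level exceeded the PBS bound 1.39-fold (adjusted p = 0.296 in limma). Cd6 was detected on 2 of the 3 arrays of each tumour group. It passed the filter on dim probes only through those arrays, so nothing is read from its direction. Of the T lineage list, 5 of 10 genes were tested, with 2 higher and 3 lower at day 4 (median -0.37), 3 higher and 2 lower at day 11 (median 0.06) and 0 past the threshold. Lef1, a transcription factor of T cells, had a change of -0.85 ± 0.36 at day 4 with groups that did not overlap, and Il7r, the receptor of a survival factor that FRCs make, had -0.99 ± 0.55. The regulatory T cell factor gene Foxp3 (0.59 ± 0.33) and Ets1 (0.34 ± 0.30) lay on the other side of 0 at day 4, and the chromatin organiser gene Satb1 had -0.37 ± 0.33.

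Of the 14 tested B cell receptor and signalling genes, 0 passed in each comparison. They split into 6 higher and 8 lower at day 4 (median -0.13), 7 and 7 at day 11 (median 0.03), and 9 and 5 between day 4 and day 11 (median 0.19). For Blk, a kinase of the B cell receptor, PBS gave only a bound, which the day 11 mean exceeded 1.08-fold (adjusted p = 0.496 in limma). Since Blk was detected on only 1 of the 3 day 11 arrays, that fold is itself uncertain. Blk passed the filter on dim probes only through tumour arrays, so nothing is read from its direction. The B lineage list, which includes Ebf1, had 4 tested genes of 7, with 1 higher and 3 lower at day 4 (median -0.40), 2 and 2 at day 11 (median -0.03) and 0 past the threshold. Of its factors, Pou2af1 had -0.80 ± 0.73 at day 4 and 0.63 ± 0.73 at day 11, and Ikzf3 had -0.80 ± 0.58 and 0.09 ± 0.58.

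Of the general leukocyte list, which includes Cd52, 10 of 13 genes were tested. At day 4, 2 were higher and 8 lower (median -0.17 against 0.045 over all tested genes). At day 11 all 10 had a positive change (median 0.37 against 0.053), as did 54.1% of all tested genes. Among the 10, Cd74 (0.00 ± 0.38) and Laptm5 (0.04 ± 0.31) lay near 0. In either comparison 0 passed the threshold. Ptprc, which encodes CD45, had 0.31 ± 0.31 at day 11, the signalling gene Vav1 had 1.22 ± 0.54 and the GTPase gene Rac2 0.45 ± 0.31. The summed level of the list was 4679 to 5797 intensity units on the PBS arrays, 3126 to 5343 on the day 4 arrays and 3985 to 7647 on the day 11 arrays, so the groups overlapped.

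Markers of other cell types were read beside these. The 5 tested myeloid genes of 14 had a summed level of 1956 to 2212 in PBS, 955 to 1816 at day 4 and 2451 to 2886 at day 11. At day 4, 1 was higher and 4 lower (median -0.84), and at day 11, 4 were higher and 1 lower (median 0.29). Each day 4 array lay below each PBS array in their sum, as it did for both Cd3e probes. Each day 11 array lay above each PBS array in that sum, whereas day 11 and PBS overlapped for both Cd3e probes. Lyz2, a macrophage lysozyme, had -0.77 ± 0.34 and the adaptor gene Tyrobp -0.84 ± 0.39 at day 4. Fcer1g, an Fc receptor chain, was undetected on the day 4 arrays, and PBS exceeded that bound by at least 1.68-fold (adjusted p = 0.372 in limma). It passed the filter on dim probes only with the PBS arrays, where it was high, so nothing is read from its direction. The protease gene Ctss went the other way, at 0.25 ± 0.30, and the calcium-binding protein gene S100a9 had -1.31 ± 0.63. Of the 5, 0 passed. The part of these cells in the member values was not tested. The myeloid markers Itgam, C1qb and C1qc were detected on 0 arrays.

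Follicular dendritic markers, which include Cr2 and Fcer2a, had 7 tested genes of 10 and medians of 0.06 at day 4 and -0.07 at day 11. The adhesion molecule gene Vcam1 had 0.57 ± 0.24 at day 4 and 0.39 ± 0.24 at day 11, with tumour arrays above PBS arrays in both, and Madcam1 had 0.48 ± 0.58 and 0.83 ± 0.58. The summed level of the list overlapped between groups, at 7484 to 9032 in PBS, 8483 to 9664 at day 4 and 8128 to 8910 at day 11. Dendritic cell markers, which include Ccr7, had 6 tested genes of 9, with medians of -0.17 and 0.36 and summed levels of 2494 to 2954, 1948 to 3082 and 2486 to 3598. Ccl22, Xcr1 and Cd209a of that list were detected on 0 arrays. Flt3 had log2 changes of -0.19 ± 0.86 at day 4 and 1.12 ± 0.86 at day 11, and the integrin gene Itgax 0.14 ± 0.50 and 0.26 ± 0.50.

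The other lists were tested in the same fit. The 3 tested cytotoxic genes of 8 had medians of -0.27 at day 4 and 0.21 at day 11. Klrb1c had -0.47 ± 0.52 and 0.59 ± 0.52, and the chemokine gene Ccl5 had -0.27 ± 0.39 and 0.21 ± 0.39. Prf1, the other gene tested and detected on all 9 arrays, went the other way, at 0.12 ± 0.34 and -0.30 ± 0.34. The 4 tested endothelial genes of 9 had medians of 0.25 and 0.37, with the receptor gene Tek at 0.76 ± 0.60 and 0.96 ± 0.60. Pecam1, detected on 1 day 4 array and on 0 day 11 arrays, had -0.64 ± 0.38 at day 4. It passed the filter on dim probes only with the PBS arrays, so nothing is read from its direction. The plasma cell list had 5 tested genes of 8, with medians of 0.11 and 0.64. It held the 1 probe that passed in the tests against day 11, Ighg1, an immunoglobulin heavy chain gene that was not above background in PBS or at day 4. Day 11 exceeded the PBS bound by at least 10.3-fold (adjusted p = 0.0166 in limma), but 0 probes passed in that comparison with the replicate block, with only the groups compared, with no filter on dim probes, or when any 1 array other than day 11 replicate 3 was left out. The list's summed level, which includes Ighg1, was 548 to 596 in PBS, 618 to 789 at day 4 and 1131 to 1781 at day 11. Ighg1 passed the filter on dim probes only through its day 11 arrays, so nothing about the list is read from that sum. In each comparison with PBS, 4 of the 5 were higher and 1 lower. Those counted as higher at day 4 include Ighg1, at 0.00 ± 0.43 and undetected in both groups. Sdc1, counted as higher in both comparisons, was undetected on the PBS arrays and detected on 1 day 11 array. Nothing is read from these counts. The lower gene was Jchain, at -0.25 ± 0.56 and -0.43 ± 0.56. The FRC list had medians of 0.08 and -0.09, with Grem1, an antagonist of BMP signals, at 0.73 ± 0.24 and 0.22 ± 0.24 and the surface glycoprotein gene Pdpn at 0.29 ± 0.26 and 0.74 ± 0.26. Its summed level of 33745 to 38422 in PBS, 36812 to 39827 at day 4 and 33584 to 38315 at day 11 overlapped between groups. The zone chemokines and survival factors, which include Ccl19 and Ccl21a, had 6 tested genes, all higher at day 4 (median 0.16) and 2 of 6 higher at day 11 (median -0.16), with 0 past the threshold. Ccl19 had 0.33 ± 0.28 and -0.18 ± 0.28, Ccl21a 0.11 ± 0.28 and -0.31 ± 0.28, Cxcl13 0.06 ± 0.28 and 0.11 ± 0.28, and Il7 0.21 ± 0.31 and -0.43 ± 0.31.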

How the data were processed

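Total RNA of FRCs from 9 mice, 3 per group, was amplified and hybridised to 1-colour bead arrays, 1 array per mouse. The authors deposited unnormalised probe intensity and a detection p-value for every probe and array, per the file headers, and a second table of processed values. That table has the same median and mean intensity on each array and the rank order of the deposited raw intensity. The submitters' processing notes name lumi, with no version. Raw intensities were background-corrected with the detection p-values, quantile normalised and put on the log2 scale with an offset of 16 (neqc, limma 3.58.1, R 4.3.3). Probes with a detection p-value under 0.01 on at least 3 arrays were kept, and the 3 comparisons were fitted in 1 model over all 9 arrays (lmFit, eBayes), with Benjamini-Hochberg adjustment over 16577 probes at 0.05. The number of arrays limits the precision. The p-values set a group difference against the spread between mice within groups, pooled over the 3 groups and moderated across all tested probes.

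Of all probes, 34885 had 1 gene symbol in the platform annotation, 18 had several and 10378 are unnamed here. A gene in a list was represented by its tested probe with the highest mean. Where the detection of a listed gene is counted in arrays, its probe detected on the most arrays was used. The members and lists were chosen with earlier results of these data known. Named beside the members were list genes past the threshold or otherwise the 2 of lowest p per list, plus a fixed set of markers, and for likeness the 2 genes of highest correlation. Some markers of the fixed set had no named probe and were not analysed here. Some genes outside this rule were named after their values were seen. Zap70, Cd5, Cd28, Itgam, C1qb, C1qc, Ccl22, Xcr1 and Cd209a were named because they were detected on 0 arrays. Pdgfrb, Ltbr and Sdc1 were named because each was detected on only 4 arrays. Foxp3, Ets1, Satb1, Ctss and S100a9 were named to complete their lists. A gene not above background in a group has a fold given as a bound: the bright group's mean against, per array, the higher of the lowest signal among detected probes and the probe's own value. Script steps were tested on simulated data.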

Additional observations from a re-analysis of the deposited data

How the results depend on the processing

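The count of 0 member probes past the threshold held in each comparison under all 19 alternatives tried, and 0 probes of any gene passed at day 4 against PBS under each of them. At day 11, 1 probe, that of Ighg1, passed against PBS and against day 4. Both counts were 0 with no filter on dim probes, with only the groups compared in the fit and with the replicate block. They were also 0 with probes detected on all 9 arrays, a setting that left out Ighg1, detected on 3 arrays, before the test. With a variance prior that follows intensity they were 18 and 4. Leaving out 1 array in turn gave 0 to 2 in both comparisons, and leaving out PBS replicate 1 and day 11 replicate 3 together, an alternative added after seeing the data, gave 2 and 2. The causes were not tested. Same-numbered replicates did not deviate together (correlations of -0.05 to 0.06 over 9 pairs), so the numbers were not taken as pairs.

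Of the 51 member changes, 29 kept their direction under every alternative computed and 22 turned under at least 1, of which 21 had a size under 0.5 on the log2 scale. Cd3e probe 1 at day 4 ranged from -1.86 to -1.36 when 1 array was left out, with adjusted p from 0.216 to 0.705 over its alternatives. The median of the T cell receptor list at day 4 ranged from -0.40 to -0.06 without 1 array, and that of the B cell receptor list from -0.37 to 0.01. At day 11 against PBS the medians of both lists turned sign with the array left out, from -0.28 to 0.15 for T and from -0.22 to 0.24 for B. At day 11 against day 4 the T median ranged from 0.13 to 0.53, and the B median turned, from -0.15 to 0.41. Signal near background limits both Cd3e probes, Cd8b1 probe 2, Cr2 probe 2, Fcer2a probes 2 and 3 and both Cd52 probes, which were each undetected on at least 1 array.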
